A study of Homo sapiens with 6 samples.

Results

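The genes described here encode the initiation and elongation factors of translation and the enzymes that modify elongation factors. They were taken by name, as protein-coding genes whose symbols begin with EIF1 to EIF6 or EEF, leaving out the EIF2AK kinases and the EIF4EBP binding proteins, with at least 200 read pairs summed over the 4 libraries of mimic-transfected cells. Of 65 genes that fit the name, 58 reached this minimum. They were 45 initiation factor genes and 13 genes of elongation factors and their modifiers, among 13078 genes of all kinds that passed the same minimum.

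The libraries came from Argonaute-2 (AGO2) RNA immunoprecipitation in MDA-MB-231, an established triple-negative breast cancer cell line, and the comparison asks which mRNAs travel with AGO2 when miR-99b-5p is in excess. Cells received either miR-99b-5p mimic, a synthetic copy of the microRNA, or a scrambled control, in both cases at 25 nM for 18 hours. The mimic group had 2 AGO2-IP libraries, made from RNA pulled down with an anti-AGO2 antibody, and 2 flow-through libraries, made from the RNA left behind. The control group had 1 AGO2-IP and 1 flow-through library by their titles. The study's supplementary sample list names both as control replicates without a fraction, so every control ratio below rests on those titles. All 6 libraries came from transfected cells of the same line, the control groups have no replicate, and a library from an IgG pull-down was not analysed here.

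Initiation factors bring the small ribosomal subunit, the initiator tRNA and the mRNA together. eIF4E holds the cap, eIF4G bridges it to the ribosome, the helicase eIF4A opens the leader with the help of eIF4B and eIF4H, eIF2 delivers the initiator tRNA and eIF3 organises the small subunit. Elongation then runs on eEF1A, which brings each aminoacyl-tRNA, the exchange factors that recharge it, and eEF2, which moves the ribosome along. AGO2 with its microRNA usually binds mRNAs through pairing between the seed of the microRNA and the 3′ untranslated region, and lowers their translation and stability.

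The mature miR-99b-5p (RefSeq, GRCh38.p14, plus strand at chr19:51692618-51692639) is shown because its seed, bases 2 to 8 in capitals, sets what a matching mRNA has to carry.

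hsa-miR-99b-5p: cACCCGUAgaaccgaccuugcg

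The sense strand of 1 transcript per gene (GENCODE release 44, GRCh38) was searched for ACGGGT, the shortest seed match, for the longer TACGGGT, for the equally long ACGGGTA, and for TACGGGTA, which contains all the others. Among 3′ untranslated regions only that of EEF2K, the kinase that inhibits eEF2, held a match, which is 1.72% of the 58 genes against 6.67% of 11742 protein-coding genes tested. No factor gene had a longer form there, where 2.21% of those protein-coding genes did. Within coding sequence 7 factor genes held a match, or 12.1% against 9.83%. They were EEF1A2, EEF2, EEF2K, EIF2A, EIF2B3, EIF2B4 and EIF3C. The 5′ untranslated regions of EEF1A1 and EIF5 held a match, or 3.45% against 1.59%. The windows of 30 bases below show the EEF2K site and 3 coding sites in factors whose levels are described further on, with the bases of the seed match in capitals.

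EEF2K, 3′ untranslated region, chr16:22286621-22286650, plus strand: ttatttacacaaACGGGTggcccttttggg

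EIF2A, coding, chr3:150572277-150572306, plus strand: tgctcccaggtTACGGGTtaataatggata

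EIF2B4, coding, chr2:27364825-27364854, minus strand: gtctgtgatgtcACGGGTAgggacagcaca

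EEF2, coding, chr19:3982364-3982393, minus strand: ggtctggcctccACGGGTgggccttcaccc

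A match in these letters describes the transcript and does not show a bound site. Binding without a seed match was not searched.

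Counts on genes ran from 7772149 to 8076375 in the control libraries and from 38022779 to 48544756 in the mimic libraries. Rows that name no gene held 92.3% and 95% of the control read pairs and 21.4% to 47.2% of the mimic read pairs, and mitochondrial genes took 43.4% of the gene counts of the control flow-through. The line's markers VIM, CD44, AXL, FN1 and CAV1 summed to 982 to 4018 CPM (counts scaled to a common library total), while ESR1, PGR and CDH1 stayed at or under 3.96 CPM and the blood, endothelial and liver markers PTPRC, PECAM1 and ALB summed to 0.973 to 9.40 CPM. GATA3, a luminal marker, was not absent, at 8.26 to 24.8 CPM. AGO2 mRNA stood between 122 and 597 CPM. As bulk libraries they cannot tell fewer expressing cells from less RNA per cell.

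With mimic, the factor genes were spread widely between the fractions, and members of the same complex could stand on opposite sides. EIF4A2, the helicase subunit, and EIF2S1, the regulatory subunit of eIF2, were the furthest to the AGO2-IP side, and EIF3I and EIF3G of eIF3, EEF2 and the eEF2 methyltransferase gene EEF2KMT the furthest to the flow-through side. None of the 58 passed edgeR's quasi-likelihood test at a Benjamini-Hochberg adjusted p-value of 0.05 or less together with a log2 fold change past 1 in either direction, where 0.245% of all genes were called higher and 0.413% lower in AGO2-IP. At an unadjusted p under 0.05 there were 18 factor genes (31% against 23.8% of all genes), of which 9 were higher (15.5% against 10.6%) and 9 lower (15.5% against 13.1%). On the fold change alone, 16 factor genes were at 1 or above (27.6% against 20% of all genes) and 15 at -1 or below (25.9% against 26.9%). The replicate number as a block, which takes same-numbered fractions as pairs although no source states that they came from 1 lysate, gave 4 calls higher (EEF1AKMT2, EIF2S1, EIF4A2 and EIF4E) and 2 lower (EEF2 and EIF3I), against 4.6% and 5.08% of all genes. PyDESeq2, the tool that the study's methods name, gave 4 higher (EIF2B3, EIF2S1, EIF2S3 and EIF4A2) and 5 lower (EEF2, EEF2KMT, EIF3G, EIF3I and EIF3K), against 6.43% and 8.24%.

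The median log2 fold change of the 58 genes was 0.21, beside -0.05 over protein-coding genes. Its sign was not stable, as it was -0.18 in the first mimic pair and 0.34 in the second, and -0.21 after each library's trend with transcript GC content (the GC trend) was removed. The median absolute log2 fold change was 1.13 beside 0.93 over protein-coding genes. Both mimic AGO2-IP libraries lay above both mimic flow-through libraries for 22 factor genes (37.9% against 28.1% of all genes) and below them for 17 (29.3% against 28.5%). The other 19 overlapped. When the control libraries were added, 10 genes had all 3 AGO2-IP libraries above all 3 flow-through libraries (17.2% against 15% of all genes) and 13 had them below (22.4% against 15.3%). The first set held EIF4A2, EIF2S1, EIF2B3, EIF4E2, EIF4ENIF1, EIF3B, EIF3M, EIF4H, EEF1AKMT2 and EEF1AKMT4. The second held EIF3F, EIF3G, EIF3I, EIF3K, EIF3L, EIF2D, EIF5, EIF5A, EIF5AL1, EIF6, EEF2, EEF2KMT and EEFSEC.

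**Figure D1:**
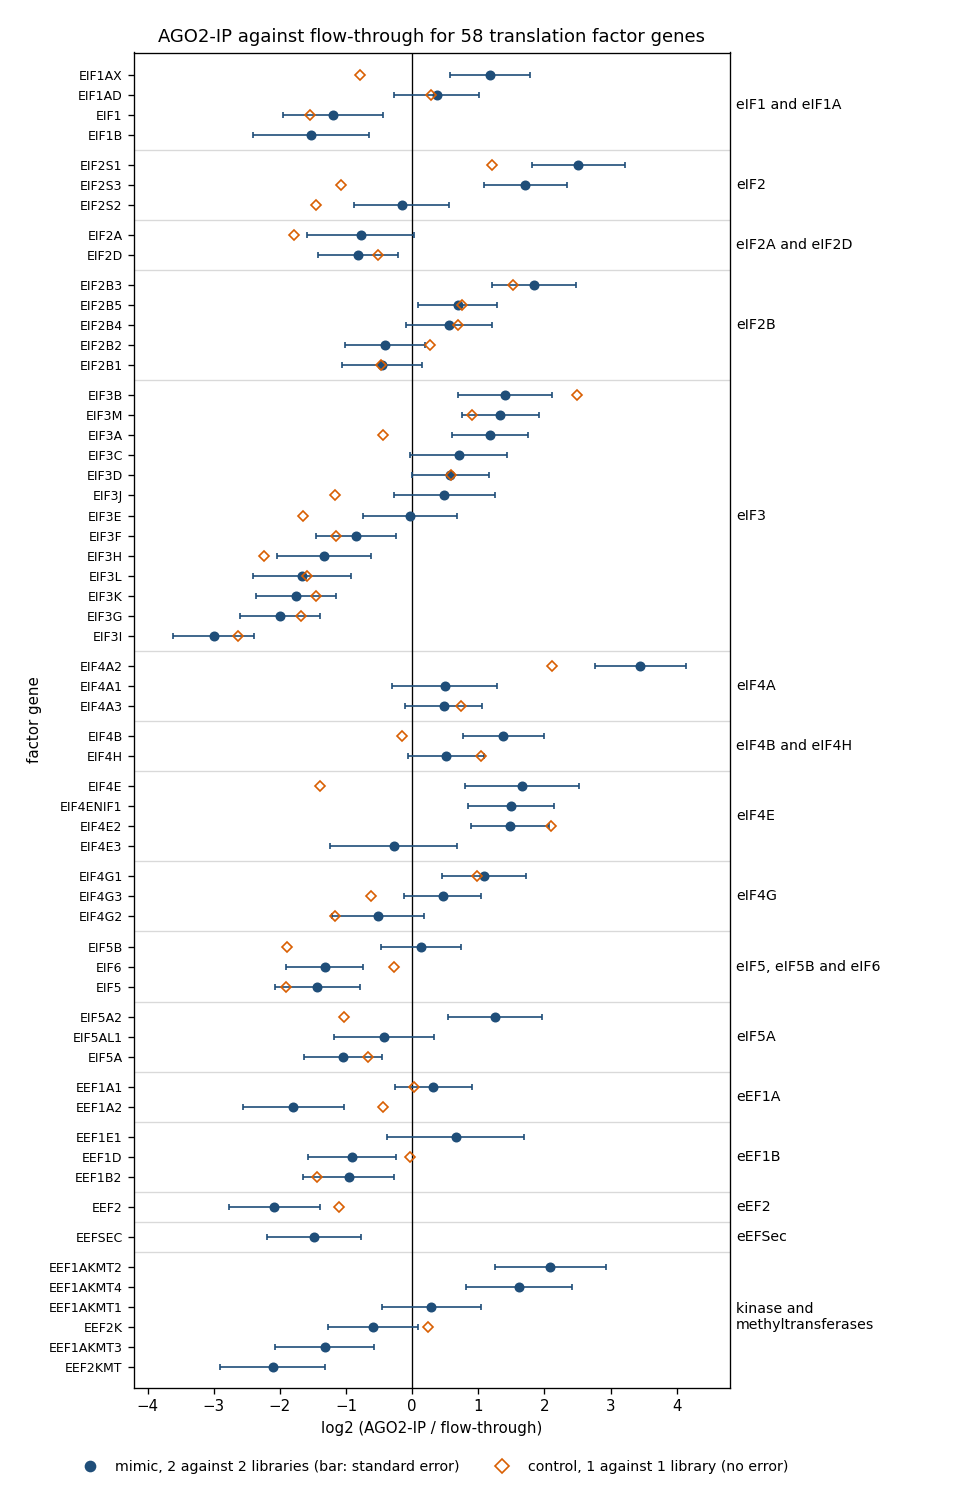
Log2 ratio of AGO2-IP over flow-through (x axis) for each of the 58 factor genes (y axis), grouped by complex. Filled circles are the mimic log2 fold changes with their standard errors (2 against 2 libraries) and open diamonds the control log2 ratios (1 against 1 library, 45 genes). The eIF3 genes run from EIF3B at 1.41 to EIF3I at -3.00, and EIF4A2 stands highest at 3.45.

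Levels below are normalized CPM, the same scale with library totals adjusted by TMM factors over the 6 libraries, and each log2 fold change is mimic AGO2-IP over mimic flow-through by edgeR's quasi-likelihood test with its Benjamini-Hochberg adjusted p-value. The p-values measure only the spread between these libraries.

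EIF4A2 (chr3:186783205-186789897, plus strand, 11 exons), a helicase that unwinds mRNA leaders, had 164 and 64.9 normalized CPM in mimic flow-through 1 and 2 and 1438 and 1064 in mimic AGO2-IP 1 and 2. In the control it had 98.9 in flow-through and 495 in AGO2-IP. Every AGO2-IP library was above every flow-through library, and the mimic AGO2-IP libraries were the highest of the 6. The log2 fold change was 3.45 (SE 0.69, adjusted p = 0.0529), with an adjusted p of 0.000115 under the replicate block, 2.5e-05 by PyDESeq2 and 0.0243 after the GC trend was removed. Over 16 alternatives the adjusted p ran from 2.5e-05 to 0.327, and 8 of them called the gene. Its paralog EIF4A3, a helicase of the exon junction complex, had 108 and 138 in mimic flow-through, 199 and 143 in mimic AGO2-IP, 57.0 in control flow-through and 110 in control AGO2-IP. The mimic fractions did not overlap but were close, with a log2 fold change of 0.47 (SE 0.59, adjusted p = 0.642). Control AGO2-IP lay below mimic flow-through 2. EIF4A1, the main eIF4A of most cells, was at only 1.73 to 6.65 normalized CPM over the 6 libraries. As 100% of its transcript lies under other annotated genes of the same strand, where STAR assigns reads to no gene, its log2 fold change of 0.49 (adjusted p = 0.727) rests on few of its reads.

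Of the 4 genes around the cap-binding protein, 3 had both mimic AGO2-IP libraries above both flow-through libraries, and none passed the main test. EIF4E, which binds the cap for eIF4F, had 59.6 and 6.74 in mimic flow-through, 122 and 88.0 in mimic AGO2-IP, 48.3 in control flow-through and 21.1 in control AGO2-IP. The mimic fractions stood apart in the opposite order to the control, and the mimic flow-through replicates were far from each other. Its log2 fold change was 1.66 (SE 0.87, adjusted p = 0.263, and 0.0422 under the replicate block). Leaving out mimic flow-through 1 gave 3.92 and leaving out mimic flow-through 2 gave 0.78. EIF4E2, a cap-binding protein that takes part in repression rather than initiation, had 44.9 and 42.1 in mimic flow-through, 117 and 125 in mimic AGO2-IP, 32.5 in control flow-through and 161 in control AGO2-IP. All 3 AGO2-IP libraries were well above the flow-through libraries and the replicates were close to each other. It had a log2 fold change of 1.48 (SE 0.59, adjusted p = 0.166). EIF4ENIF1, which carries eIF4E into the nucleus and into processing bodies, had a log2 fold change of 1.49 (adjusted p = 0.193) with 27.5 and 27.6 in mimic AGO2-IP. EIF4E3 was scarce, at 3.23 and 0.626 in mimic flow-through, 2.31 and 0.877 in mimic AGO2-IP, 5.01 in control flow-through and 1.45 in control AGO2-IP. Its mimic fractions overlapped (log2 fold change -0.28, adjusted p = 0.883).

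Among the scaffolds, EIF4G1 had 453 and 1065 in mimic flow-through, 1302 and 1921 in mimic AGO2-IP, 309 in control flow-through and 704 in control AGO2-IP. AGO2-IP was higher in each condition, with no overlap within the mimic. The test gave a log2 fold change of 1.09 (SE 0.63, adjusted p = 0.307), with 1.83 (adjusted p = 0.0497) after the GC trend was removed. Without mimic flow-through 1 it was 0.55 and without mimic flow-through 2 it was 1.80. EIF4G3 was nearly level, at 75.5 and 71.3 in mimic flow-through and 95.6 and 107 in mimic AGO2-IP beside 61.5 and 46.2 in control flow-through and AGO2-IP, with a log2 fold change of 0.46 (adjusted p = 0.648). EIF4G2, which lacks the eIF4E binding region and works in cap-independent initiation, had 1394 and 408 in mimic flow-through, 836 and 426 in mimic AGO2-IP, 669 in control flow-through and 343 in control AGO2-IP. The mimic fractions overlapped and the log2 fold change was -0.51 (SE 0.70, adjusted p = 0.676), which became 0.59 without mimic flow-through 1. Of the helicase cofactors, EIF4B had 215 and 114 in mimic flow-through and 480 and 374 in mimic AGO2-IP (log2 fold change 1.37, adjusted p = 0.200), and EIF4H had 333 and 464 against 508 and 629 (0.51, adjusted p = 0.608). Neither overlapped. Summed over both genes, the level was 549 and 578 in mimic flow-through and 988 and 1003 in mimic AGO2-IP.

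**Figure D2:**
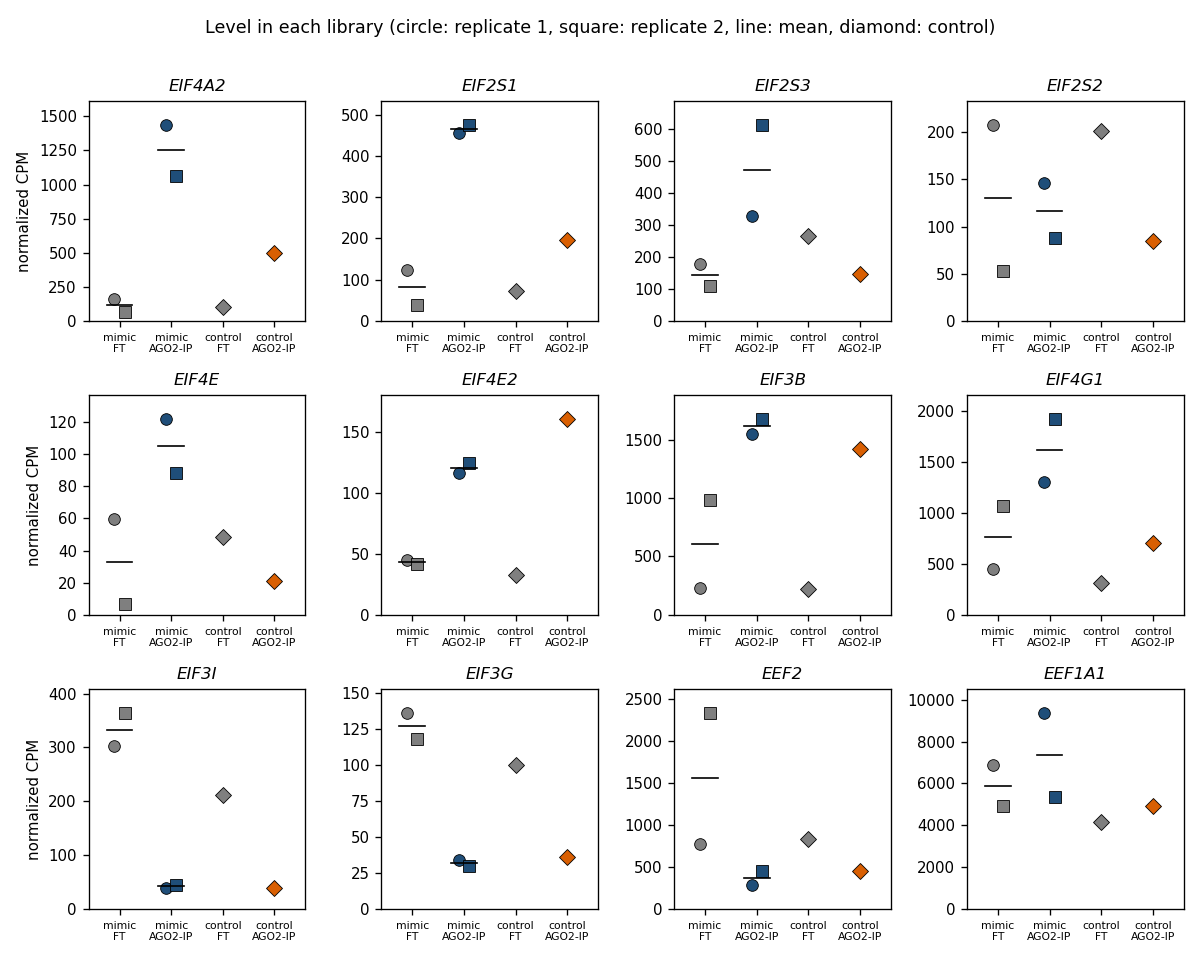
Normalized CPM (y axis, starting at 0, with its own range for each gene) of 12 factor genes in the 6 libraries (x axis: mimic flow-through, mimic AGO2-IP, control flow-through, control AGO2-IP). Circles and squares are mimic replicates 1 and 2 with a line at their mean, and diamonds the control libraries. EIF4A2, EIF2S1, EIF4E2 and EIF3B have every AGO2-IP library above every flow-through library, EIF3I, EIF3G and EEF2 the reverse, and EIF2S3 and EIF4E are ordered differently in mimic and control.

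The 3 subunits of eIF2 did not move together. EIF2S1 (alpha, chr14:67360328-67386516, plus strand), whose phosphorylation turns initiation down under stress, had 124 and 38.4 in mimic flow-through, 455 and 476 in mimic AGO2-IP, 73.5 in control flow-through and 196 in control AGO2-IP. The AGO2-IP libraries were all higher, the mimic ones most. Its log2 fold change was 2.51 (SE 0.70, adjusted p = 0.0869), with an adjusted p of 0.00855 under the replicate block, 0.0053 by PyDESeq2 and 0.0408 after the GC trend was removed. EIF2S3 (gamma), which binds the initiator tRNA and GTP, had 179 and 109 in mimic flow-through, 328 and 614 in mimic AGO2-IP, 267 in control flow-through and 145 in control AGO2-IP. Mimic AGO2-IP was above mimic flow-through, and the control ran the other way. The test gave 1.71 on the log2 scale (SE 0.63, adjusted p = 0.145, and 0.020 by PyDESeq2), which was 1.02 (adjusted p = 0.186) after the GC trend was removed. EIF2S2 (beta) had 208 and 53.2 in mimic flow-through, 146 and 87.6 in mimic AGO2-IP, 201 in control flow-through and 84.5 in control AGO2-IP. Its mimic fractions overlapped (log2 fold change -0.16, SE 0.72, adjusted p = 0.911), and the sign turned to 0.11 under the replicate block and to 1.09 without mimic flow-through 1.

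The genes of eIF2B, the exchange factor that reloads eIF2 with GTP, ranged more narrowly. EIF2B3 (gamma), with a coding seed match, had 29.5 and 17.5 in mimic flow-through, 106 and 62.9 in mimic AGO2-IP, 14.2 in control flow-through and 47.3 in control AGO2-IP. Each AGO2-IP library was above each flow-through library, and the log2 fold change was 1.84 (SE 0.64, adjusted p = 0.131, and 0.0346 by PyDESeq2). EIF2B5, the catalytic subunit, followed at 0.69, EIF2B4 with its coding seed matches at 0.56, EIF2B2 at -0.41 and EIF2B1 at -0.46, with adjusted p-values of 0.495 to 0.701. EIF2B1 (alpha) had 83.1 and 48.2 in mimic flow-through, 47.4 and 48.2 in mimic AGO2-IP, 47.3 in control flow-through and 39.3 in control AGO2-IP. Apart from mimic flow-through 1, its levels were all close. EIF2B1 counts among the 17 genes on the flow-through side by a log2 difference of only -0.0016 between mimic AGO2-IP 2 and mimic flow-through 2. The alternative initiator tRNA carriers EIF2A, which holds a longer seed match in its coding sequence, and EIF2D had log2 fold changes of -0.78 (adjusted p = 0.577) and -0.82 (adjusted p = 0.424). EIF2A had 46.2 and 8.53 in mimic flow-through and 12.4 and 19.5 in mimic AGO2-IP, so its fractions overlapped, and its log2 fold change turned to 0.86 without mimic flow-through 1.

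The log2 fold changes of eIF3 spanned the widest range of any complex, at 4.41, but eIF3 also had the most genes. The range over the 6 genes of the elongation factor kinase and methyltransferases was 4.20. Of 13 subunit genes, 5 (EIF3A, EIF3B, EIF3C, EIF3D and EIF3M) had both mimic AGO2-IP libraries above both flow-through libraries and 5 (EIF3F, EIF3G, EIF3I, EIF3K and EIF3L) had them below, where 28.1% and 28.5% of all genes did so. The median log2 fold change was -0.03, and -0.61 after the GC trend was removed. The summed level of the 13 was 2183 and 2384 in mimic flow-through and 2996 and 3347 in mimic AGO2-IP, of which EIF3B alone made up 1551 and 1678.

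EIF3I (chr1:32221077-32245397, plus strand, 11 exons), a propeller-shaped subunit that binds eIF3b and eIF3g, had 302 and 364 in mimic flow-through, 38.4 and 44.7 in mimic AGO2-IP, 211 in control flow-through and 39.1 in control AGO2-IP. The AGO2-IP libraries were close to each other and all far below the flow-through libraries. The log2 fold change was -3.00 (SE 0.62, adjusted p = 0.0543), with an adjusted p of 0.00375 under the replicate block, 5.8e-05 by PyDESeq2 and 0.0235 after the GC trend was removed. Across 16 alternatives the adjusted p ran from 5.2e-05 to 0.767, 8 of them called the gene, and the log2 fold change without any 1 library lay between -3.18 and -2.89. EIF3G, an RNA-binding subunit, had 136 and 118 in mimic flow-through, 34.1 and 29.4 in mimic AGO2-IP, 99.6 in control flow-through and 35.7 in control AGO2-IP. The fractions stood apart in both conditions, with a log2 fold change of -2.0 (SE 0.60, adjusted p = 0.0987, and 0.0116 by PyDESeq2). After the GC trend was removed it was -1.19 (adjusted p = 0.178). EIF3K, a small peripheral subunit, had 115 and 99.2 in mimic flow-through, 37.3 and 26.3 in mimic AGO2-IP, 98.7 in control flow-through and 41.5 in control AGO2-IP. It was lower in AGO2-IP in both conditions (log2 fold change -1.75, SE 0.61, adjusted p = 0.129, and 0.0331 by PyDESeq2).

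EIF3B, the scaffold to which eIF3i and eIF3g attach, went the other way. It had 232 and 986 in mimic flow-through, 1551 and 1678 in mimic AGO2-IP, 219 in control flow-through and 1416 in control AGO2-IP. The AGO2-IP libraries were similar and highest, while mimic flow-through 2 lay between them and the other flow-through libraries. The log2 fold change was 1.41 (SE 0.71, adjusted p = 0.251, and 0.0482 after the GC trend was removed), 0.67 without mimic flow-through 1 and 2.77 without mimic flow-through 2. EIF3A, the largest subunit, had 210 and 191 in mimic flow-through, 378 and 529 in mimic AGO2-IP, 135 in control flow-through and 115 in control AGO2-IP. The fractions were apart with mimic and nearly level in the control, and the log2 fold change was 1.18 (SE 0.58, adjusted p = 0.241). EIF3M was at 1.33 (adjusted p = 0.192), EIF3C at 0.70 (0.576), EIF3D, which can bind the cap of some mRNAs, at 0.58 (0.557), the loosely bound EIF3J at 0.49 (0.721) and EIF3E at -0.03 (0.982). EIF3F, EIF3H and EIF3L lay at -0.85, -1.33 and -1.66, with adjusted p-values of 0.408, 0.273 and 0.198. For EIF3L, 58.5% of the transcript lies under another annotated gene of the same strand, so its counts are partial.

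Of the factors that check the start codon and join the subunits, only EIF1AX had its mimic fractions apart on the AGO2-IP side. EIF5 and EIF6 had them apart on the flow-through side, and the others overlapped. EIF1, which guards start codon choice, had 509 and 93.5 in mimic flow-through, 130 and 134 in mimic AGO2-IP, 286 in control flow-through and 113 in control AGO2-IP. Mimic flow-through 2 lay below the AGO2-IP libraries, so the fractions overlapped, and the log2 fold change of -1.19 (SE 0.76, adjusted p = 0.351) became 0.45 without mimic flow-through 1. Its paralog EIF1B had 27.8 and 4.38 against 5.65 and 5.47 in the mimic and 15.9 against 8.57 in the control, with the same overlap (log2 fold change -1.53, adjusted p = 0.302). EIF1AX, which binds the ribosomal A site, had 112 and 137 in mimic flow-through, 205 and 358 in mimic AGO2-IP, 167 in control flow-through and 112 in control AGO2-IP. Mimic and control were ordered differently, and the log2 fold change of 1.18 (adjusted p = 0.255) became -0.17 when the GC trend was removed.

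EIF5, which triggers GTP hydrolysis by eIF2, had 277 and 116 in mimic flow-through, 76.2 and 69.4 in mimic AGO2-IP, 185 in control flow-through and 56.7 in control AGO2-IP. It was lower in AGO2-IP throughout, with a log2 fold change of -1.43 (SE 0.64, adjusted p = 0.203, and 0.0335 after the GC trend was removed), which was -0.72 without mimic flow-through 1. EIF6, which keeps the ribosomal subunits apart, had 200 and 249 against 89.2 and 90.3 in the mimic but 110 against 105 in the control (log2 fold change -1.32, adjusted p = 0.199). EIF5B, the GTPase that joins the subunits, had 67.3 and 36.6 in mimic flow-through, 54.3 and 59.8 in mimic AGO2-IP, 31.4 in control flow-through and 9.61 in control AGO2-IP. With mimic the fractions overlapped at a log2 fold change of 0.13 (adjusted p = 0.911), which was -0.68 after the GC trend was removed. EIF5A, the hypusine-bearing factor that helps ribosomes through difficult peptide bonds, had 682 and 783 in mimic flow-through, 435 and 275 in mimic AGO2-IP, 652 in control flow-through and 474 in control AGO2-IP. Each AGO2-IP library was below each flow-through library, at a log2 fold change of -1.04 (SE 0.58, adjusted p = 0.293). Its paralog EIF5A2 stood on the other side, with 40.6 and 11.5 in mimic flow-through, 52.9 and 71.2 in mimic AGO2-IP, 36.6 in control flow-through and 20.6 in control AGO2-IP (log2 fold change 1.25, SE 0.71, adjusted p = 0.298). That value was 2.39 without mimic flow-through 1, 0.58 without mimic flow-through 2 and 0.57 after the GC trend was removed. It was higher in AGO2-IP with mimic and lower in the control, a difference that was not tested.

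The 13 genes of elongation factors and their modifiers had a median log2 fold change of -0.91, and the 45 initiation factor genes had 0.46, beside -0.11 over all genes tested. After the GC trend was removed the medians were -0.30 and -0.02, beside -0.05 over all genes, and in the control they stood in the opposite order, at -0.23 over 6 elongation and -0.62 over 39 initiation genes. EEF2, the translocase, had 769 and 2334 in mimic flow-through, 285 and 447 in mimic AGO2-IP, 833 in control flow-through and 446 in control AGO2-IP. The AGO2-IP libraries were all lower, and mimic flow-through 2 was far above the rest. On the log2 scale the difference was -2.08 (SE 0.69, adjusted p = 0.118), with an adjusted p of 0.0413 under the replicate block, 0.0287 by PyDESeq2 and 0.186 after the GC trend was removed. The size also depended on the setting, at -0.96 after the GC trend was removed, -2.72 without mimic flow-through 1 and -1.10 without mimic flow-through 2. EEF2K, its kinase and the carrier of the seed match in the 3′ untranslated region, had 22.5 and 53.1 in mimic flow-through, 17.9 and 32.3 in mimic AGO2-IP, 28.5 in control flow-through and 38.8 in control AGO2-IP. The mimic fractions overlapped, and both mimic AGO2-IP values lay below the control AGO2-IP value (log2 fold change -0.59, SE 0.69, adjusted p = 0.620). EEF2KMT, the eEF2 lysine methyltransferase, was scarce at 6.0 and 9.30 in mimic flow-through and 1.33 and 2.22 in mimic AGO2-IP, with 6.21 and 3.93 in control flow-through and AGO2-IP (log2 fold change -2.11, SE 0.80, adjusted p = 0.151, and 0.0375 by PyDESeq2). As 41% of its transcript lies under ALG1 of the other strand, its counts without strand are partial. By the stranded columns 3 and 4 its log2 fold change was -0.95 and -1.05. Column 3 held 49% to 55.1% of the stranded counts in the 6 libraries, so strand was not resolved. The stranded counts of EEF2KMT, 1327 and 1352 in the mimic libraries against 878 without strand, may therefore include reads of ALG1.

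EEF1A1 was the most abundant factor mRNA per transcript length in all 6 libraries, at 1960 and 1399 normalized CPM per kilobase in mimic flow-through, 2671 and 1521 in mimic AGO2-IP, 1183 in control flow-through and 1399 in control AGO2-IP. On the same scale EIF4A2 came next in the mimic AGO2-IP libraries, at 763 and 564. Without the length scaling EEF1A1 had 6884 and 4913 in mimic flow-through and 9381 and 5340 in mimic AGO2-IP, and the fractions overlapped (log2 fold change 0.32, SE 0.58, adjusted p = 0.760). Its direction turned to -0.30 when the GC trend was removed. EEF1A1 has 49 pseudogenes by symbol, and reads that also map to those were not counted. EEF1A2, the form of muscle and neurons that some breast tumours also express, had 15.7 and 56.1 in mimic flow-through, 8.52 and 12.1 in mimic AGO2-IP, 18.8 in control flow-through and 16.0 in control AGO2-IP. Its mimic AGO2-IP values were the lowest of the 6 (log2 fold change -1.80, SE 0.76, adjusted p = 0.184). The log2 fold change was -0.25 (adjusted p = 0.725) after the GC trend was removed and -0.63 without mimic flow-through 2.

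The 3 measured genes listed under the eEF1B exchange complex all overlapped between the mimic fractions, though EEF1E1 belongs to the tRNA synthetase complex. EEF1B2 had 295 and 83.9 in mimic flow-through and 102 and 93.1 in mimic AGO2-IP, with 221 and 94.4 in control flow-through and AGO2-IP (log2 fold change -0.96, adjusted p = 0.407). EEF1D had 68.9 and 203 against 66.5 and 77.9 in the mimic (-0.91, adjusted p = 0.414), and its sign turned to 0.56 after the GC trend was removed and to 0.04 without mimic flow-through 2. EEF1E1, a scaffold protein of the tRNA synthetase complex, had 10.03 and 0.626 in mimic flow-through, 10.1 and 6.68 in mimic AGO2-IP, 5.87 in control flow-through and 3.41 in control AGO2-IP (0.66, adjusted p = 0.723), so its overlap rests on mimic flow-through 1. EEFSEC, which delivers selenocysteine tRNA, was at -1.48 (adjusted p = 0.228). The eEF1A lysine methyltransferases were split, with EEF1AKMT2 at 2.09 (SE 0.84, adjusted p = 0.168, and 0.0289 under the replicate block), EEF1AKMT4 at 1.62 (adjusted p = 0.241), EEF1AKMT1 at 0.29 (0.837) and EEF1AKMT3 at -1.32 (0.298). All 4 were scarce, between 1.71 and 24.1 normalized CPM. EEF1AKMT2 had 8.05 and 1.71 in mimic flow-through, 24.1 and 17.6 in mimic AGO2-IP, 5.01 in control flow-through and 8.88 in control AGO2-IP, with every AGO2-IP library above every flow-through library. Its log2 fold change was 3.56 without mimic flow-through 1, 1.34 without mimic flow-through 2 and 1.55 after the GC trend was removed.

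Several factor mRNAs begin with a terminal oligopyrimidine tract, through which mTOR controls their translation. Of 9 such genes listed, 8 were measured, and their median log2 fold change was -0.88, beside -0.11 over all genes, with 6 below 0. Of these 6, EEF1B2 (0.17) and EIF3E turned above 0 without mimic flow-through 1, and EEF1D (0.04) without mimic flow-through 2. EEF2, EIF3F and EIF3H stayed below 0 without any 1 library. EEF1A1 turned to -0.16 without mimic AGO2-IP 1, and EIF4B stayed above 0. How far the median rests on 1 library was not tested. The fractions stood apart on the flow-through side for 2 of the 8 (EEF2 and EIF3F) and on the AGO2-IP side for 1, EIF4B, where 28.5% and 28.1% of all genes did so. In the control the median log2 ratio of the same genes was -1.13, beside 0.01 over all genes. The transcript starts were not checked here.

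In the control cells, which received no mimic, the question is how far the same split exists. The control log2 ratio of AGO2-IP over flow-through could be computed for 45 factor genes and had a median of -0.51, beside 0.01 over 8245 genes. It was at least 1 for 6 of them (EIF2B3, EIF2S1, EIF3B, EIF4A2, EIF4E2 and EIF4H), which is 13.3% against 15.9% of all genes, and at most -1 for 19, which is 42.2% against 18.1%. EIF3B stood highest at 2.49, then EIF4A2 at 2.11 and EIF4E2 at 2.10, and EIF3I lowest at -2.64, then EIF3H at -2.24 and EIF5 at -1.91. Scaling by library size alone moved all control ratios up by a median of 0.89 and the factor median to 0.38, so the share below 0 depends on the scaling. With 1 library in each fraction these ratios have no replicate check.

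Across the 45 genes the mimic and control ratios were correlated, with 0.66 as Pearson's r and 0.64 as Spearman's rho. Genes are not independent replicates, and all ratios share the antibody, the line and the annotation. For 8 of the 45, or 17.8% against 11.6% of all genes, the mimic fractions stood apart one way and the control ratio pointed the other way. These were EIF2S3, EIF4E, EIF4B, EIF5A2, EIF1AX, EIF3A, EIF4G3 and EIF2B2. With the control scaled by library size alone, 4 of the 8 still pointed the other way (EIF2S3, EIF4E, EIF5A2 and EIF2B2).

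**Figure D3:**
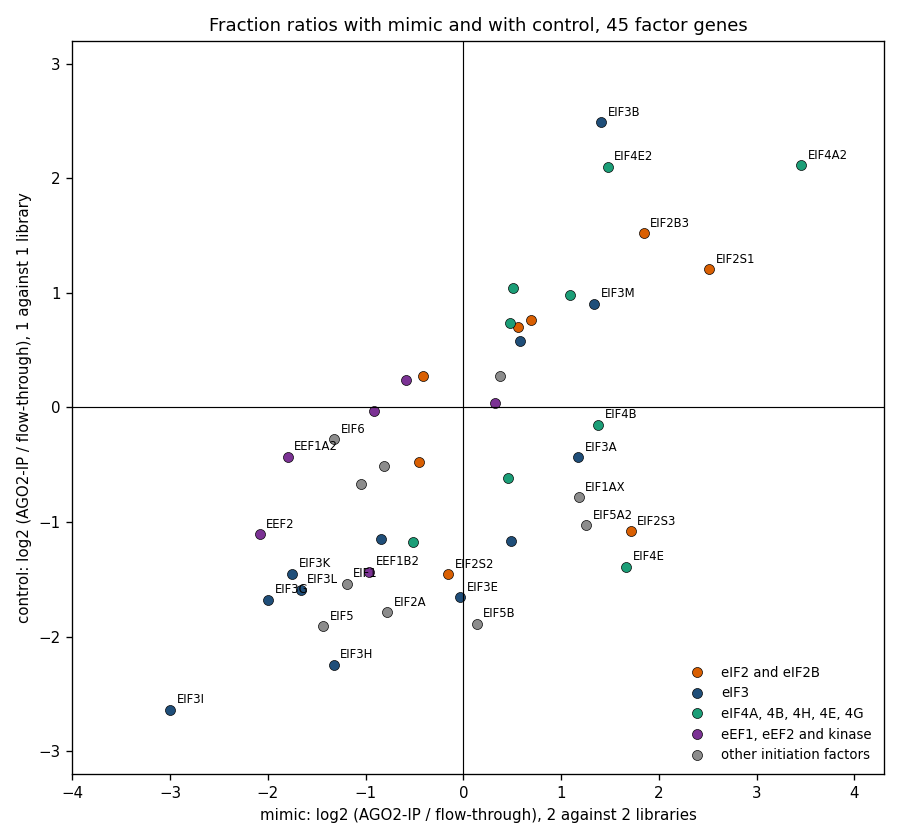
Log2 ratio of AGO2-IP over flow-through in mimic cells (x axis, 2 against 2 libraries) and in control cells (y axis, 1 against 1 library) for 45 factor genes, coloured by complex. EIF4A2 (3.45 and 2.11) and EIF3I (-3.00 and -2.64) lie at the ends of the diagonal, and EIF2S3 (1.71 and -1.08) and EIF4E (1.66 and -1.39) at the lower right.

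Set against the control AGO2-IP library, the mimic AGO2-IP libraries had a median log2 ratio of 0.32 over 56 factor genes, beside 0.02 over 11467 genes. It was at least 1 for 15 of them (26.8% against 17.3% of all genes) and at most -1 for EEF1AKMT3 and EEFSEC (3.57% against 17.4%). The ratio was at least 1 in both mimic libraries for 10 factor genes (17.9% against 12.2% of all genes). They were EIF2S1, EIF2S3, EIF3A, EIF3J, EIF4A2, EIF4B, EIF4E, EIF4ENIF1, EIF5A2 and EIF5B. The mean ratios ran as high as 2.49 for EIF5B, 2.23 for EIF4E and 1.89 for EIF3A. EEF1AKMT3 alone was at most -1 in both libraries (1.79% against 12.2%). For EIF3I the ratio was 0.02, with 38.4 to 44.7 normalized CPM in the AGO2-IP libraries. The mimic flow-through libraries against the control flow-through had a median of 0.07 over 58 factor genes, beside 0.05 over 12254 genes, with 4 factor genes at 1 or above (6.9% against 10% of all genes) and 4 at -1 or below (6.9% against 10.2%). In both mimic libraries no factor gene was past 1 in either direction, where 2.8% of all genes were above and 3.35% below. These ratios rest on 1 control library of lower depth and other composition, and treatment and library cannot be told apart.

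The mimic flow-through replicates differed more than the AGO2-IP replicates. The SD over the 58 genes of the log2 difference between replicates was 1.29 for flow-through and 0.586 for AGO2-IP, beside 1.44 and 0.84 over all genes. The flow-through difference ran with the GC content of the transcript, with a Spearman's rho of -0.73 over the 58 genes and -0.75 over 11747 protein-coding genes, where the AGO2-IP difference had -0.12 and -0.01. AU-rich mRNAs such as EIF4E (34.5% GC, difference 3.14) were higher in flow-through 1 and GC-rich mRNAs such as EIF3B (56.9% GC, difference -2.09) and EEF2 (59.9% GC, difference -1.60) in flow-through 2. The log2 fold change also ran with GC content, at a rho of -0.34 over the factor genes and -0.55 over protein-coding genes, and the part of GC content in single results was not tested beyond removing the trend. Removing each library's GC trend gave 4 calls higher (EIF2S1, EIF3B, EIF4A2 and EIF4G1) and 2 lower (EIF3I and EIF5), against 3.32% and 2.36% of all genes. With the replicate block added it gave 10 higher and 9 lower, against 14% and 12.7%. Leaving out 1 library left its group with 1, so that the spread came from the other fraction alone and was assumed to hold for both. With the spread of the closer AGO2-IP pair, 14 of 57 factor genes were called higher and 9 lower without mimic flow-through 1, against 20.2% and 20.6% of all genes, and 2 and 6 of 58 without mimic flow-through 2, against 1.9% and 3.4%. Where the spread was that of the flow-through pair there were none, against 0.103% and 0.175% of all genes without AGO2-IP 1 and 0.0157% and 0.157% without AGO2-IP 2.

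**Figure D4:**
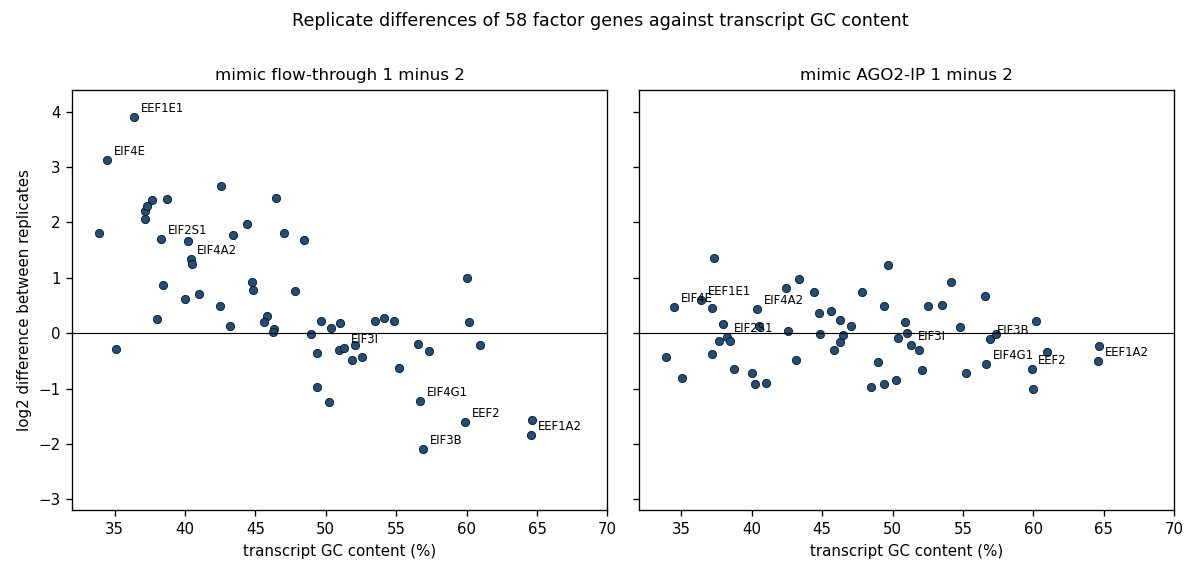
Log2 difference between the 2 mimic replicates (y axis) against transcript GC content in percent (x axis) for the 58 factor genes, in flow-through on the left and AGO2-IP on the right. The left panel falls from 3.91 at EEF1E1 and 3.14 at EIF4E to -2.09 at EIF3B as GC content rises, and the right panel shows no such slope.

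The 22 genes apart on the AGO2-IP side had a median transcript GC content of 47.1% and a median length of 3276.5 bases, and the 17 on the flow-through side had 52.1% and 2397 bases. The ranges of both overlapped widely, from 33.9% to 60% and from 40% to 64.6% GC.

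Other genes of the pathway were listed by role and not by how they moved. Of 31 listed eIF2 kinases, 4E-binding proteins, termination and recycling factors, poly(A)-binding proteins and initiation cofactors, 30 were measured, with a median log2 fold change of 0.71, beside -0.11 over all genes. None passed the main test, and 6 of 30 had an unadjusted p under 0.05, all higher, against 10.6% of all genes higher and 13.1% lower. The fractions were apart on the AGO2-IP side for 16, against 28.1% of all genes, and on the flow-through side for 4, against 28.5%. In the control, with 1 library in each fraction, the log2 ratio was at least 1 for 0 of 28, against 15.9% of all genes. It was at most -1 for 4, against 18.1%. The replicate block called 4 higher and none lower (4.6% and 5.08% of all genes), and PyDESeq2 did the same (6.43% and 8.24%). With the GC trend removed 1 was called higher and none lower (3.32% and 2.36%), and with the block added 7 were higher and 2 lower (14% and 12.7%). PDCD4, which binds eIF4A and blocks its helicase, had 24.3 and 5.66 in mimic flow-through, 190 and 214 in mimic AGO2-IP, 16.4 in control flow-through and 28.8 in control AGO2-IP. The mimic AGO2-IP libraries were far above the other 4 (log2 fold change 3.75, SE 0.80, adjusted p = 0.0543, and 0.000169 under the replicate block). The helicase gene DDX3X was at 2.86 (adjusted p = 0.0718, and 0.00462 under the replicate block), the ribosome rescue factor HBS1L at 2.38 (0.0883 and 0.0186) and the reinitiation factor DENR at 2.10 (0.118 and 0.0225). Of the eIF2 kinases, EIF2AK2, which senses double-stranded RNA, was at -0.92 (adjusted p = 0.385) with a control log2 ratio of -2.78. The other kinases lay on the AGO2-IP side, with EIF2AK1 at 0.88 (0.418), EIF2AK3 at 0.94 (0.427) and EIF2AK4 at 0.98 (0.319). EIF4EBP1, which holds eIF4E back, was at -1.05 (adjusted p = 0.318), and EIF4EBP2 was at 1.07 (0.306).

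Of the 7 factor genes under the count minimum, EEF1G of the eEF1B complex had 0 counts, and 99.5% of its transcript lies under another annotated gene of the same strand. The near-copies EIF2S3B and EIF3CL had 185 and 180 read pairs, and EIF4E1B had 14. The remaining 3 were a Y-linked gene and 2 read-through genes that lie wholly under their parts. The members nearest the minimum were EIF4E3 with 358, EIF5AL1 with 560 and EEF1AKMT1 with 723 read pairs. EIF3C, with 1018, shares near-identical sequence with EIF3CL, so its level of 3.41 to 7.08 normalized CPM is uncertain. Shares of 49.2%, 37.5% and 26.6% of the transcripts of EEF1AKMT4, EEF1E1 and EIF6 also lie under other annotated genes of the same strand. The counts used here, without strand, also leave out read pairs under genes of the other strand. Such genes cover 34.5% of the EEF1D transcript, 29.3% of EIF2B2 and 22.4% of EIF2B1, among others. EEF1D had 18672 mimic read pairs without strand but 42068 and 33440 in the stranded columns 3 and 4. Its level without strand is partial, and as strand was not resolved, the stranded counts may include reads of the overlapping genes.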

How the data were processed

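Paired-end reads were checked (FastQC 0.11.9), trimmed (Cutadapt 3.5), aligned to GRCh38 and counted as read pairs per gene (STAR 2.7.11b) by the authors. The deposited values are raw counts per gene in 6 libraries, and column 2, without strand, was used. Read pairs that map to several places or to overlapping genes are not counted. Of 60708 identifiers, 60463 were named by GENCODE release 44.

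Mimic AGO2-IP and flow-through were compared with edgeR 4.0.16 (glmQLFit, TMM, no replicate term) over the 13078 genes whose counts summed to 200 or more, adjusted by Benjamini-Hochberg. Levels printed per library are TMM-normalized CPM over all 6 libraries. Comparisons with a control library are log2 ratios with a prior count of 2 and no test, and TMM factors differ between comparisons. PyDESeq2 0.5.4, the replicate block, a lowess GC correction (span 0.2, as offsets) and the other alternatives are described at the end. Scripts were tested on simulated data with a smaller spread between libraries than these data have. That test therefore does not show how many real changes would be called here.

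The replicate numbers were taken to pair the fractions, since both mimic fractions carry the same biological replicate numbers in their titles. No source used here states that the pair came from 1 lysate, and with 2 pairs the data cannot settle it. Over genes, same-numbered libraries deviated together with r = 0.324 (Pearson), and the common biological coefficient of variation was 0.527. Genes named with full values are the extremes of each complex of at least 3 measured genes, the 10 largest changes, paralog sets, EEF2 and carriers of a 3′ seed match. Other genes are named with a value within their complex. The members and lists were chosen with earlier results of these data known.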

Additional observations from a re-analysis of the deposited data

Results flagged for a closer look

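For 8 of 45 factor genes the mimic libraries of the 2 fractions stood apart in one direction while the control ratio pointed in the other. With 1 control library in each fraction this difference was not tested. EIF2S3 had a mimic log2 fold change of 1.71 and a control log2 ratio of -1.08. EIF4E had 1.66 with mimic and -1.39 in the control. EIF5A2 had 1.25 and -1.03. EIF1AX had 1.18 and -0.78. EIF3A had 1.18 and -0.44. For EIF4B the values were 1.37 and -0.15, for EIF4G3 0.46 and -0.62, and for EIF2B2, which ran the opposite way, -0.41 and 0.27. Scaling the control libraries by library size alone raised all control ratios by a median of 0.89, so the sign of several control values depends on the scaling. Scaled this way, 4 of the 8 still pointed the other way. They were EIF2S3 at -0.19, EIF4E at -0.51, EIF5A2 at -0.15 and EIF2B2 at 1.16.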

How the results depend on the processing

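Against 0 factor genes higher and 0 lower in the main test, there were 2 and 1 without a count filter, 4 and 2 with the replicate block, 4 and 2 with the GC trend removed, 10 and 9 with both, 1 and 1 after thinning to the shallowest library, and 4 and 5 by PyDESeq2. Leaving out 1 library gave 0 to 14 higher (14 without mimic flow-through 1, 2 without mimic flow-through 2) and 0 to 9 lower (9 and 6). The median log2 fold change of 0.21 became -0.21 with the GC trend removed, was -0.18 and 0.34 in the 2 mimic pairs, and ran from -0.12 to 0.45 without 1 library. DESeq2's size factors, library size alone, either strand column, all 6 libraries in one fit and protein-coding genes only gave no call. Without any count filter the median was 0.55. The control median of -0.51 was -0.52 with DESeq2's size factors, 0.38 by library size, -0.71 and -0.69 by strand columns 3 and 4, -0.46 with the GC trend removed and -0.53 after thinning. The mimic AGO2-IP over control AGO2-IP median of 0.32 was 0.19 by library size and ran from 0.22 to 0.50 without 1 mimic library. The flow-through median of 0.07 was 0.54 by library size and ran from -0.04 to 0.24.

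None of the 32 genes with full values passed the main test, and the replicate block brought 6 past it without a change of sign (EEF1AKMT2, EIF2S1, EIF4A2, EIF4E, EEF2 and EIF3I). Signs turned for other genes. With the GC trend removed, EEF1A1 was -0.30, EIF1AX -0.17 and EIF5B -0.68, and with the replicate block added EEF1A1 was -0.34 and EIF5B -0.66. EIF2S2 was 0.11 with the replicate block and 0.10 without a count filter. Without 1 library at a time, EEF1A1 ran from -0.16 (mimic AGO2-IP 1 left out) to 0.63, EIF4A1 from -0.27 (same library) to 0.95, and EIF4E3 from -1.15 to 0.23 (mimic AGO2-IP 2). With mimic flow-through 1 left out at the upper end, EEF1B2 ran from -1.63 to 0.17, EIF1 from -1.98 to 0.45, EIF1B from -2.35 to 0.30, EIF2S2 from -0.87 to 1.09 and EIF4G2 from -1.18 to 0.59. EIF2S2 was 0.14 without mimic AGO2-IP 2. EEF1E1 ran from -0.29 to 3.70, EIF5B from -0.27 to 0.60 and EEF2K from -1.13 to 0.13, the turned sign in each coming without mimic flow-through 2. The cause was not tested. Over all 58 factor genes the sign turned without 1 library for 16 and with the GC trend removed for 6. Each leave-1-out fit takes its spread from the fraction that still has 2 libraries. With 2 libraries in each mimic group and 1 in each control group, both the number of libraries and the lower control depth limit these values.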
